A study of Mus musculus with 4 samples.

Results

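The transcription factors p63, AP-2, Grainyhead and their epithelial companions of the ETS and Ovo-like families are represented here by 10 genes: Trp63, Tfap2a, Tfap2b, Tfap2c, Grhl1, Grhl2, Grhl3, Ehf, Elf3 and Ovol1. Their surroundings were defined by position alone, as the RefSeq gene bounds (GRCm38.p6) extended by 50 kb on either side. Of the 74777 accessible regions, or peaks, in the deposited list, 89 (0.119%) shared at least 1 base with these 10 windows, and no peak fell in more than 1 window.

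The regions come from ATAC-seq, an assay that marks open DNA by letting Tn5 transposase cut and tag it, of hair follicle stem cells sorted from the back skin of female mice at postnatal day 30. Cells were gated as H2BGFP(+), Sca-1(-), CD34(+) and CD49f(+). In the KO mice (K14-H2BGFP, K14Cre, Foxc1 fl/fl) Cre driven by the keratin 14 promoter deletes the forkhead factor gene Foxc1 throughout Krt14-expressing epithelium, and the WT mice (K14-H2BGFP, Foxc1 fl/fl) carry the same reporter and floxed alleles with no Cre. Each genotype was 1 library sequenced in 2 runs, and all 4 runs share 1 peak list of coordinates, so the peaks carry no genotype, no KO against WT comparison was made, and every value below is a description with no replicate error. The read depth is unknown, so a place with no peak may be closed or only too shallowly covered, and peak width in bp is the only size a peak has. Marker genes were listed with earlier results of these data known, so their counts describe the sorted cells and are no independent check. All 10 stem cell and basal markers examined (Cd34, Krt15, Lgr5, Sox9, Lhx2, Nfatc1, Tcf7l1, Itga6, Krt14 and Krt5) had a peak within 1 kb of a gene bound, where 57.6% of protein-coding genes had one. Krt14 counts here although the reporter and Cre use a keratin 14 promoter, and the other 9 markers all had such a peak. Of the 5 markers with an annotated start, 4 had a peak within 1 kb of it, all but Krt14. That share was 58.3% over protein-coding genes with an annotated start. A peak within 1 kb of a gene bound was found at 0 of 5 immune, 0 of 5 endothelial and 1 of 5 dermal fibroblast markers (Col1a1). It was found at 2 of 5 suprabasal epidermis markers (Lor and Ivl) and 4 of 5 melanocyte markers (all but Tyr). Lor and Ivl had 11.7 peaks per 100 kb each, where the median of the 5 suprabasal markers was 1.78. No peak lay within 1 kb of the annotated start of Lor. Of the endothelial genes, 4 of 5 had a peak inside, over 1 kb from both bounds, and Egfl7 had one at an annotated start. Their median density was 4.97 peaks per 100 kb, beside 3.79 for protein-coding genes. What part melanocytes have in the peaks below was not tested.

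These factors build and maintain surface epithelium. p63, encoded by Trp63, is needed for stratified epithelia to form and is made as TA and ΔN proteins from alternative starts, the ΔN form being the main one in basal keratinocytes. AP-2 factors act beside p63 in basal and differentiating epidermis, Grainyhead-like factors control epithelial junction and barrier genes, and the ETS factors Ehf and Elf3 are linked to differentiation. Ovol1, a zinc finger repressor, restrains proliferation as keratinocytes leave the progenitor state.

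The RefSeq promoter table placed 7 transcription starts for 5 of the genes: Tfap2a and Grhl1 with 2 each, and Tfap2b, Grhl3 and Elf3 with 1 each. For Trp63, Tfap2c, Grhl2, Ehf and Ovol1 only the gene bounds were used here. The 250 bases before 5 of these starts are printed 5′ to 3′ on the strand of the gene. They set a start with a peak beside one with no peak (Grhl1) and a start inside a peak beside one next to it (Tfap2a). The last is a CpG-poor start inside a wide peak (Tfap2b). Capitals mark matches to any of 7 short motifs on either strand.
Grhl1, start with a peak, chr12:24572037-24572286, plus strand: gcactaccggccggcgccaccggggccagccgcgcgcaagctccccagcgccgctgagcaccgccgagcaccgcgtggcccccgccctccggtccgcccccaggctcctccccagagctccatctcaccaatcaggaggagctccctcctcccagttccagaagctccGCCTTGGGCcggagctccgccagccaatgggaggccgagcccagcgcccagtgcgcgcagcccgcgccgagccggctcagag
Grhl1, internal start with no peak, chr12:24580469-24580718, plus strand: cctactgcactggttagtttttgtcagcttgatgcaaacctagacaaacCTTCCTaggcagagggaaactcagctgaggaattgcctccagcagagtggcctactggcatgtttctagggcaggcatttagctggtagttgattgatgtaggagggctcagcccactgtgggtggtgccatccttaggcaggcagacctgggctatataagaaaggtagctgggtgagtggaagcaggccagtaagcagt
Tfap2a, start inside a peak, chr13:40733796-40734045, minus strand: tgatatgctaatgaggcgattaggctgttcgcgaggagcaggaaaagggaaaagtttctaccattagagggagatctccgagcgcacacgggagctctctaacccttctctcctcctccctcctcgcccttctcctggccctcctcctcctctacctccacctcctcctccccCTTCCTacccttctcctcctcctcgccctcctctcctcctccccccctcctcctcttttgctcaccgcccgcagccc
Tfap2a, start beside that peak, chr13:40734921-40735170, minus strand: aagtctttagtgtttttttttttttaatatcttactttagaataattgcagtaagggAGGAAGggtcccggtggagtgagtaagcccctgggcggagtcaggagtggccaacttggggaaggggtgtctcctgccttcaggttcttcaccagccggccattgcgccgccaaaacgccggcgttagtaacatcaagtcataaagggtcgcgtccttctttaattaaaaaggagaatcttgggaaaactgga
Tfap2b, chr1:19211804-19212053, plus strand: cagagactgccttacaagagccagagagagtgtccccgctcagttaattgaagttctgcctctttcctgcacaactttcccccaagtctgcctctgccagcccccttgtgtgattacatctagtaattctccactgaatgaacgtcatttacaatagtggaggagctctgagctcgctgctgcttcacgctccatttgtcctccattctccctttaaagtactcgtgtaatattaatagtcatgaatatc

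The letters searched were GCCNNNGGC for AP-2, AACNNGTT for Grainyhead, AGGAAG for ETS, ACATGT for the core of the p63 site, CCGTTA for Ovo-like factors, TGANTCA for AP-1 and TGTTTAC for forkhead factors. In the open Grhl1 window an AP-2 match lay 82 to 74 bases before the start, and windows of this length held one before 16.3% of 21263 annotated starts of protein-coding genes. An ETS match, present in 28.5% of such windows, lay in the internal Grhl1 window and in both Tfap2a windows, 77 to 72 bases before the start in the Tfap2a window inside the peak. The windows of Tfap2b, Grhl3 and Elf3 held none of the 7 motifs. No member window held the Grainyhead, p63, Ovo-like, AP-1 or forkhead letters, which stood in 3.62%, 3.74%, 2.36%, 6.13% and 2.62% of all windows. The AP-2 and ETS letters did not overlap in these windows, and a match is only a run of letters.

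All 5 genes with annotated starts had a peak within 1 kb of at least 1 of them, where 58.3% of the 17492 protein-coding genes in the promoter table had one. By start, 6 of 7 had such a peak, beside 57.2% of all annotated starts of protein-coding genes. The 2 Tfap2a starts counted on the same peak, of 1999 bp. The start with no peak was the internal one of Grhl1, 5455 bp from the nearest peak, whereas the other Grhl1 start lay inside a peak of 2436 bp. The 2 Grhl1 windows also differed in sequence, the open one having 75.6% GC and 27 CpG and the internal one 52.0% GC and 0 CpG. Over all annotated starts of protein-coding genes, those with a peak within 1 kb had a median of 60.4% GC and 16 CpG, and those without had 48.4% GC and 3 CpG. Of the member starts with a peak, only that of Grhl1 exceeded the median of 16 CpG. Both Tfap2a windows had 10 CpG, and those of Grhl3 and Elf3 had 8 each. The Tfap2b window had the fewest, 5 CpG at 46.4% GC, and all of its 250 bases lay in a peak of 2580 bp. At Grhl3 the peak ended close to the start, so that 22% of the window was covered, and at Elf3 the whole window was inside a peak of 1142 bp.

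Peaks touched the outer bound of most of the genes but not of Trp63, Tfap2c or Ehf. A total of 7 of 10 genes had a peak within 1 kb of either bound, beside 57.6% of all 21887 protein-coding genes. With 10 genes, that count is close to the background share. None (0) of the 10 had peaks at both bounds, where 8.14% of protein-coding genes did, but with 2500 bp around the bounds Tfap2b had peaks at both, since a peak lay 1226 bp from its upper-coordinate bound. Inside the gene, over 1 kb from both bounds, 8 of 10 had at least 1 peak, all but Elf3 and Ovol1, beside 38.8% of protein-coding genes. The members are long, with a median length of 30.8 kb beside 17.2 kb, and among genes of at least 10 kb the share was 55.5%, with 8 of 9 members of that length. Windows of the members held a median of 8.5 peaks beside 5 for all protein-coding genes, and 5.25 peaks per 100 kb beside 3.79.

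**Figure D1:**
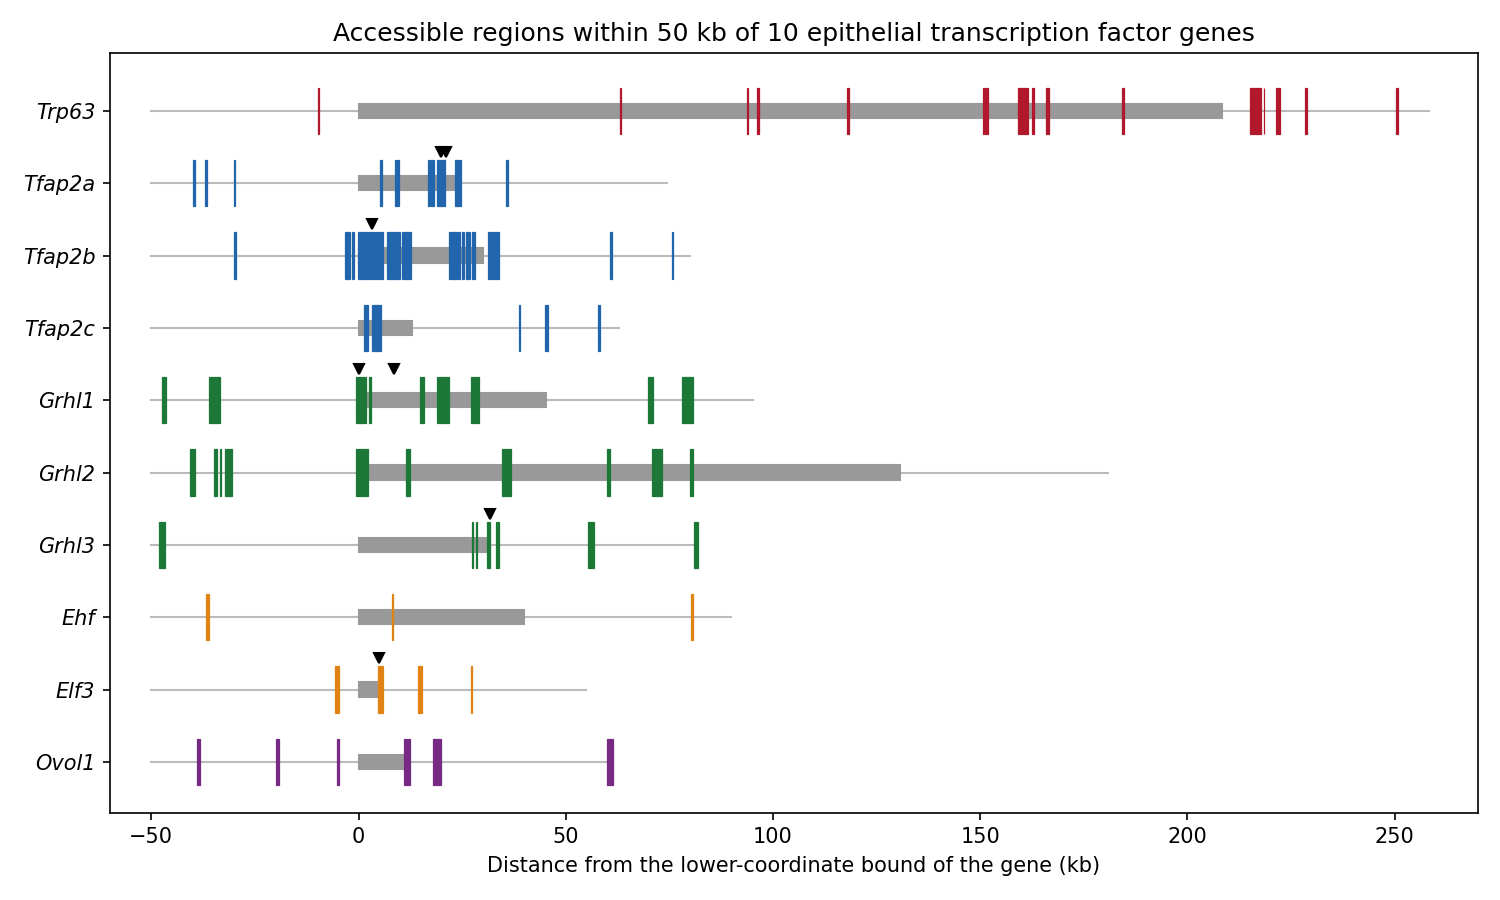
Each row is 1 gene, drawn to scale with the gene as a grey bar from its lower-coordinate bound at 0 kb, the 50 kb flanks as a thin line, peaks as coloured boxes and annotated starts from the promoter table as black triangles (the thinnest boxes are widened by the line of their edge). Tfap2b has 14 of its 17 peaks in or within 5 kb of the gene, and the peaks inside Trp63 begin 63.2 kb from its lower-coordinate bound.

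Trp63 lies on chr16:25683763-25892088, a gene of 208.3 kb, and its window held 16 peaks. Its outer bounds stood apart from every peak: the nearest lay 9461 bp from the lower-coordinate bound and 6840 bp from the upper one. Between the only peak below the gene and the earliest one inside it ran 72563 bp with no peak, which took in the lower-coordinate bound. Of the 16 peaks, 10 lay inside the gene, 5 above it and 1, of 200 bp, below it.

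Going up the gene, peaks of 292, 229 and 625 bp lay 63.2, 94.0 and 96.4 kb from the lower-coordinate bound. A single peak of 522 bp followed at chr16:25801579-25802100, 118.1 kb along. No start inside Trp63 was placed by the tables used here, so none of these peaks was assigned to the internal ΔN promoter. Further along came a pair of peaks of 200 and 723 bp, and then the widest peak inside the gene, 2440 bp at chr16:25842837-25845276, with peaks of 496 and 850 bp behind it. These last 3 peaks stood within 7.57 kb, of which 50.02% was accessible. The last peak inside the gene had 555 bp. Above the gene, the widest peak of the whole window had 2523 bp, at chr16:25898928-25901450, and was followed by peaks of 201, 781, 365 and 501 bp. Trp63 therefore combined a pair of wide peaks with many narrow ones, its median width of 511.5 bp lying below the median of all peaks, 587 bp. Its density of 5.19 peaks per 100 kb stood at percentile 66.3 of protein-coding genes, and its count of 16 at percentile 96.03, since the window is 308.3 kb long.

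The AP-2 genes, whose products bind DNA as dimers, held 32 peaks, and Tfap2b led all 10 genes. The Tfap2b window had 17 peaks, 13.1 per 100 kb (percentile 98.3 of protein-coding genes), and 16.1% of its bases were accessible (percentile 98.7), beside a median of 3.16% over protein-coding genes. Of these peaks, 14 fell in 2 dense runs with gaps under 5 kb. The lower run, chr1:19205632-19221477, held 7 peaks in 15.8 kb, 78.7% of it accessible, and took in the lower-coordinate bound and the annotated start. The upper run, chr1:19230707-19242688, held 7 peaks in 12.0 kb, 60.02% accessible. The widest member peak of all, 3112 bp at chr1:19215754-19218865, lay in the lower run, inside the gene. The annotated start of Tfap2b is 3.15 kb inside its lower-coordinate bound, so both the bound and the start had wide peaks of their own, of 2740 and 2580 bp.

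Tfap2a, on chr13:40713802-40738238, had 10 peaks, 8.04 per 100 kb (percentile 87.7). Its upper-coordinate side held 4 peaks within 8.01 kb. One of 1501 bp covered the upper-coordinate bound, and one of 1999 bp, chr13:40732734-40734732, covered the lower-coordinate of the 2 annotated starts and ended 188 bp short of the other. Both starts lie inside the gene bounds and are read toward lower coordinates. The remaining peaks inside had 448, 509, 799 and 1052 bp. The non-coding gene Gm26688, chr13:40727808-40735162, overlaps 3 of the Tfap2a peaks, those of 448, 799 and 1999 bp, which cannot be given to Tfap2a alone.

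Tfap2c, on chr2:172545678-172558622, had 5 peaks, 4.43 per 100 kb (percentile 57.7), fewer than Tfap2a and Tfap2b. It counted as having no end peak at 1 kb, but a peak of 797 bp began 1394 bp inside the lower-coordinate bound and a peak of 2304 bp followed at chr2:172548854-172551157. The other 3 peaks had 312, 805 and 579 bp and lay 25.9 to 45.04 kb above the gene, with none below it. Tfap2c thus differs from Trp63 and Ehf, the other genes with no end peak, which had no peak within 2500 bp of a bound either.

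**Figure D2:**
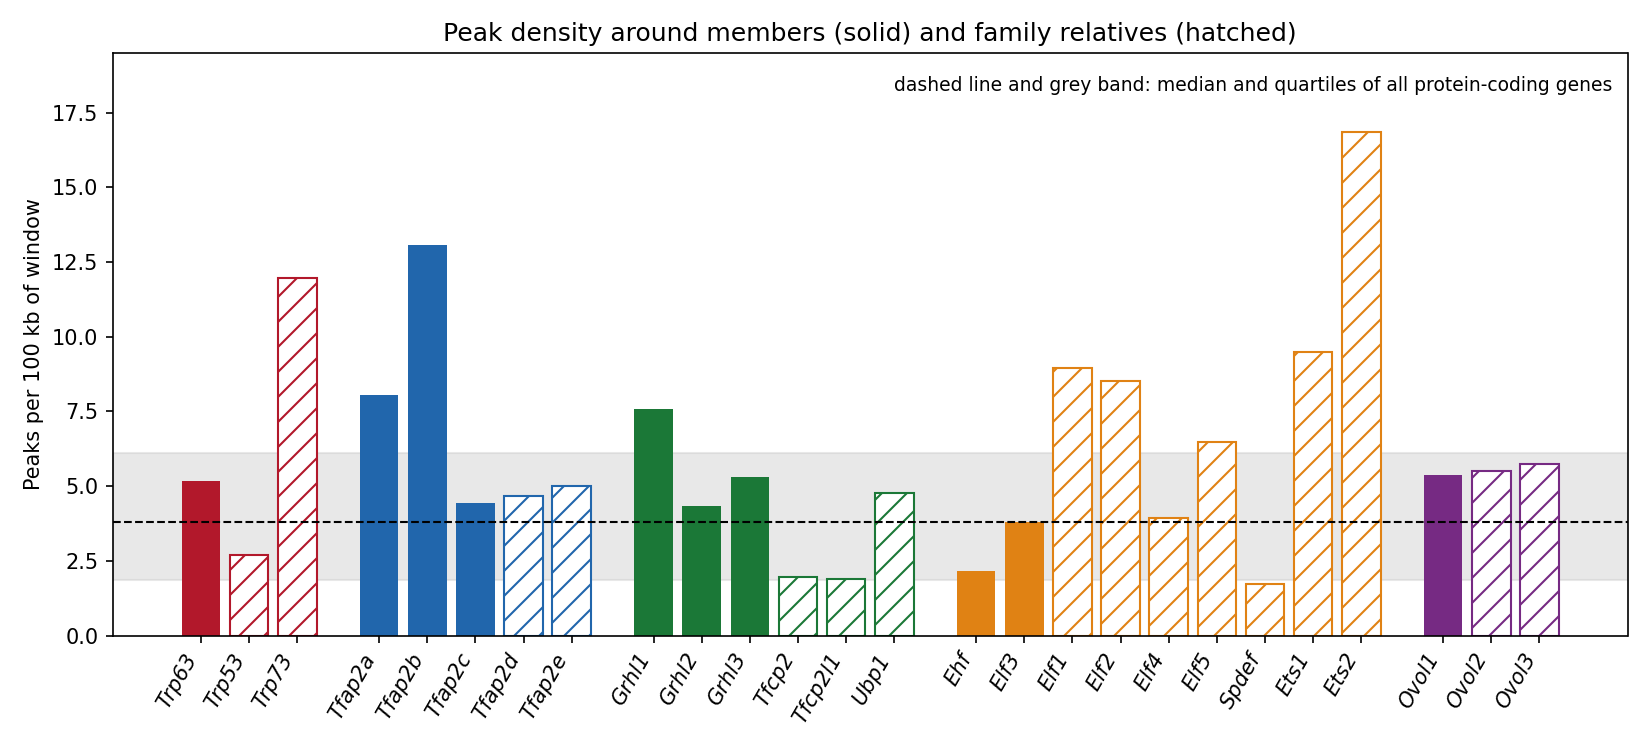
Bars give peaks per 100 kb of window (gene plus 50 kb on either side) for the 10 genes (solid) and 16 relatives of the same families (hatched), the dashed line and grey band the median (3.79) and quartiles (1.85 and 6.12) of protein-coding genes. Tfap2b, Tfap2a and Grhl1 stand above the band, as do Trp73, Elf1, Elf2, Elf5, Ets1 and Ets2 among the relatives; the peaks of Tfap2d are also counted for Tfap2b.

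At the Grainyhead genes Grhl1 and Grhl2, wide peaks sat both at a bound and deep in the gene. The 3 Grainyhead windows held 28 peaks with a median width of 972 bp, and each of the 3 genes had a peak at 1 bound. Grhl1, on chr12:24572232-24617391, had 11 peaks, 7.58 per 100 kb (percentile 84.9). Besides the 2436 bp peak at its lower-coordinate bound, peaks of 2408 and 1952 bp lay inside the gene, 20.5 and 28.1 kb from that bound. The other peaks inside had 464, 941 and 255 bp. Of its 5 peaks outside the gene, all were nearer to a bound of Taf1b or Klf11 than to Grhl1, and the widest of the window, 2582 bp, lay at Klf11.

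Grhl2, a regulator of epithelial adhesion genes on chr15:37232821-37363569, had 10 peaks in a window of 230.7 kb, 4.33 per 100 kb (percentile 56.7). Its peak of 2982 bp at the lower-coordinate bound, chr15:37232179-37235160, was the widest gene-end peak of the 10 members, and it also lies at a bound of the non-coding gene Gm16136. Inside the gene 5 more peaks stood 11.9 to 80.3 kb from that bound, with widths of 771, 2063, 836, 2519 and 685 bp. The last 50.1 kb of the gene and the flank above it held no peak. A further 4 peaks of 387 to 1817 bp lay together in 10.3 kb, centred 31.4 to 40.1 kb below the gene. Those of 717 and 387 bp also lay within 1 kb of a bound of another gene, Gm41303.

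Grhl3, known for its part in barrier formation and wound repair, is on chr4:135541887-135573632 and had 7 peaks, 5.31 per 100 kb (percentile 67.3). The peak at its start also lies within 1 kb of a bound of another gene, Gm30888. That peak had 865 bp, the narrowest at a bound of the Grainyhead genes. Peaks of 408, 200 and 579 bp lay within 5 kb of it, and these 4 peaks made the only dense run of the window, with 31.3% of 6.55 kb accessible. The Grhl3 window had no peak of 2000 bp or more, where those of Grhl1 and Grhl2 had 3 each, including the peak of 2582 bp at Klf11. Most of the gene body was without a peak: the gap of 73940 bp below the lowest-coordinate of these 4 peaks took in the lower-coordinate bound.

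The ETS genes had the fewest peaks. Ehf, on chr2:103263431-103303275, had 3 peaks in 139.8 kb, 2.15 per 100 kb (percentile 29.9), and only 1.15% of its window was accessible. They were a peak of 420 bp inside the gene, one of 714 bp at 36.5 kb below it and one of 477 bp at 40.5 kb above it. The stretch of 71719 bp between the peak inside and the peak above held the upper-coordinate bound. Elf3, on chr1:135253574-135258472, had 4 peaks, 3.81 per 100 kb (percentile 50.4). Its start at the upper-coordinate bound was covered by a peak of 1142 bp and a peak of 1049 bp lay 5.16 kb below the gene. The other 2 peaks, of 921 and 311 bp, were nearer to a bound of Rnpep. Ehf and Elf3 thus differed at their bounds, with a peak at Elf3 and none within 8008 bp of a bound of Ehf.

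Ovol1, on chr19:5549137-5560575, had 6 peaks, 5.38 per 100 kb (percentile 67.9). A peak of 1547 bp, chr19:5560027-5561573, covered its upper-coordinate bound. That peak also lay within 1 kb of a bound of Ap5b1, so it cannot be given to Ovol1 alone. The widest, of 2006 bp, lay 7.52 kb above Ovol1 and was nearest to a bound of Ap5b1. No peak midpoint lay inside Ovol1 itself, and only 2 of the 6 peaks were nearest to an Ovol1 bound. The nearest on the other side had 482 bp and lay 4.89 kb below the gene.

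Peaks of the member windows were wider than the list as a whole. Their median width was 770 bp (quartiles 496 and 1408 bp), beside 587 bp (quartiles 341 and 1025 bp) for all peaks outside the mitochondrial chromosome. A total of 15 of 89 (16.9%) spanned at least 2000 bp, a threshold picked after the values were seen, where 4.94% of all peaks did. By window, they were counted for Tfap2b (5), Grhl1 (3), Grhl2 (3), Trp63 (2), Tfap2c (1) and Ovol1 (1). The peak of 2582 bp in the Grhl1 window lay at Klf11, however. That of 2006 bp, the only one of the Ovol1 window, was nearer to a bound of Ap5b1. There was none in the windows of Tfap2a, whose widest peak had 1999 bp, or of Grhl3, Ehf and Elf3. The 8 peaks within 1 kb of a bound of their own member had a median of 1524 bp, and the 11 within 1 kb of any protein-coding gene bound 1501 bp, beside 1189 bp for the 13087 such peaks of the list. The 45 peaks inside a protein-coding gene and away from bounds had a median of 799 bp, beside 565.5 bp in the list. The 33 outside protein-coding genes and away from bounds had 579 bp, beside 473 bp. Among peaks of at least 400 bp the medians were 836 bp in the member windows and 830 bp over the list. A total of 4 of the 89 had the smallest width of the list, 200 bp.

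**Figure D3:**
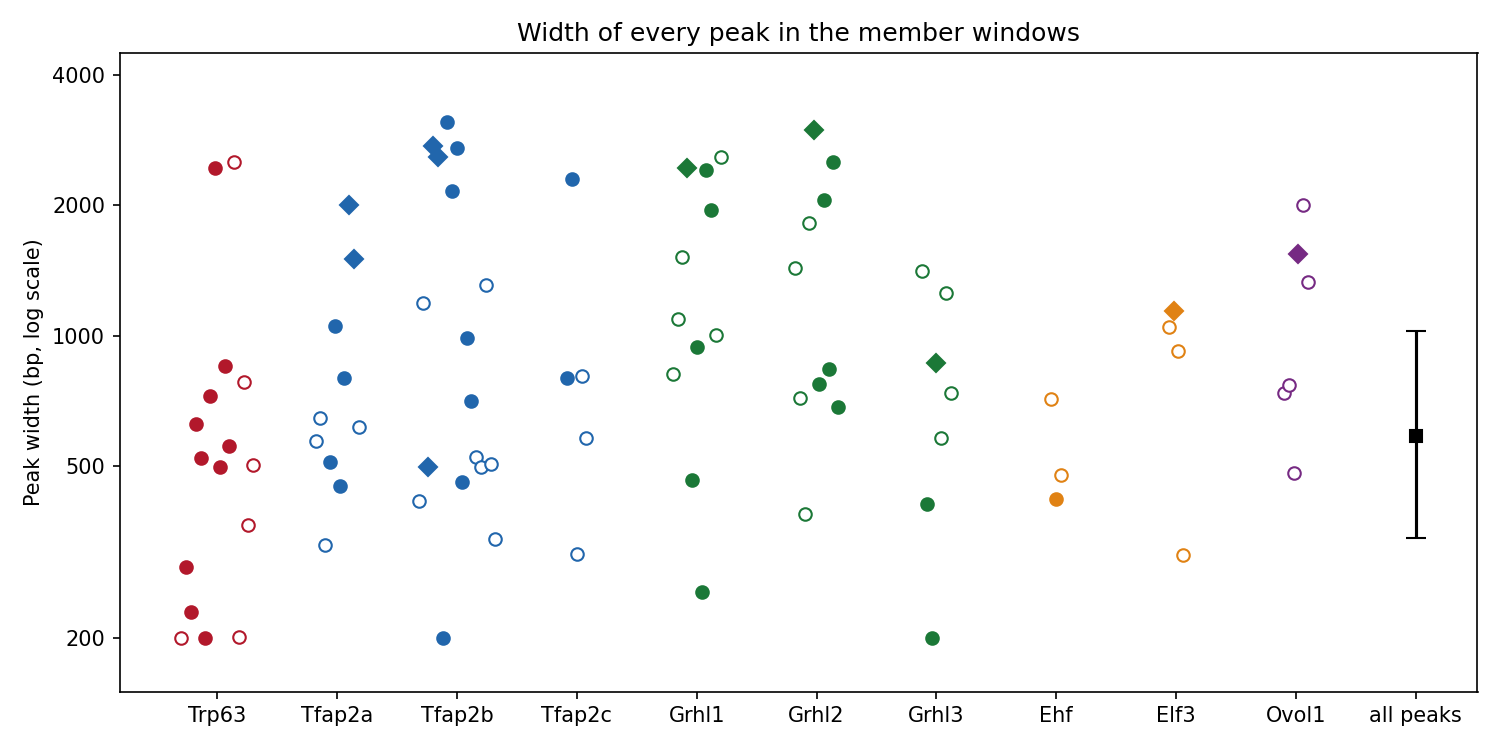
Every peak of the 10 windows is a point, with its width in bp on a log axis; diamonds lie within 1 kb of a bound or annotated start of the gene, filled circles elsewhere inside it and open circles in its flanks. The square with bars is the median (587 bp) and quartiles of all peaks. The windows of Tfap2b, Grhl1 and Grhl2 hold 11 of the 15 peaks of at least 2000 bp, including the peak of 2582 bp at Klf11.

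The 10 genes were set beside 16 relatives of the same families, of which the ETS genes are only a selection. An end peak was found at 7 of 10 members and 12 of 16 relatives, and the median density was 5.25 peaks per 100 kb in both groups. The windows of Tfap2b and its neighbour Tfap2d overlap, and all 8 peaks of the Tfap2d window are also Tfap2b peaks; without Tfap2d the 15 relatives had a median of 5.52. Within the p53 family, Trp63 with 5.19 peaks per 100 kb lay between Trp73 with 12.0 (22 peaks) and Trp53, the tumour suppressor gene, with 2.69 (3 peaks). Among AP-2 genes, Tfap2e had an end peak and 4.99 peaks per 100 kb, and Tfap2d had no end peak, no peak inside and no peak at any of its 3 annotated starts. Grhl1, Grhl2 and Grhl3 had 4.33 to 7.58 peaks per 100 kb, and their CP2-type relatives Tfcp2, Tfcp2l1 and Ubp1, all with an end peak, had 1.95, 1.91 and 4.76.

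ETS relatives reached both higher and lower than Ehf and Elf3. Ets2 had 16.9 peaks per 100 kb (percentile 99.5), Ets1 9.48, Elf1 8.94 and Elf2 8.51. Trp63 with 10 peaks inside the gene and Ets1 with 19 both lacked an end peak. Elf5 had 6.48 peaks per 100 kb with none at its starts or bounds, and Spdef, a factor of secretory epithelium, had 2 peaks in all (1.72 per 100 kb). Elf4, on the X chromosome, had 3.95. Ovol1, Ovol2 and Ovol3 each had an end peak and no peak inside, with densities of 5.38, 5.52 and 5.75.

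Genes known as targets or partners of p63, AP-2 or Grainyhead factors in epidermis mostly had open bounds. Their list was chosen with earlier results of these data known. An end peak was found at 7 of the 10 factor genes, 26 of 28 such genes and 57.6% of protein-coding genes. The 28 genes had a median of 7.10 peaks per 100 kb and ranged from 2.81 (Kmt2d) to 13.1 (Jag2). The exceptions were Zfp750, a p63 target of epidermal differentiation, and Kmt2d, a histone methyltransferase gene. Kmt2d did have a peak within 1 kb of its annotated start. Tfap2b had 13.1 peaks per 100 kb, the Notch ligand gene Jag2 13.1, the vesicle transport gene Rab25 12.2 and the cadherin gene Cdh3 11.6. The accessible part of the window was 16.1% at Tfap2b and 20.03% at Col17a1, a hemidesmosome collagen gene. Both bounds of Krt14 had a peak, but no peak lay within 1 kb of its 1 annotated start. The reporter and Cre use a keratin 14 promoter, and what part reads from these copies have in the Krt14 peaks was not tested.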

How the data were processed

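ATAC-seq regions of the 4 runs (2 genotypes, 1 library each, 2 runs per library) were deposited by the authors as a single list of coordinates, chromosome, start and end in bp, with no other value such as a score or count. The build was mm10 and the tools MACS2, bedtools and Bowtie2, per the submitters' processing notes; settings, read filters, depth and any pooling of runs: not given in the sources used here. Starts were converted to 1-based positions. Gene bounds came from RefSeq GRCm38.p6, which shares its chromosome coordinates with mm10 (21887 protein-coding genes), and starts and sequences from the RefSeq promoter table of the same build, which held 5 of the 10 members and 17492 protein-coding genes. A gene-end or start peak shared at least 1 base with the 1 kb on either side. Peaks inside a gene and flank distances were placed by midpoint. Overlap counts were tested on simulated data. The 1 mitochondrial peak was left out of widths. Columns of per-sample values not used numbered 0. Python 3.11.15, pandas 2.3.3 and numpy 2.4.6 were used. No statistical test was made, because 1 list carries no replicates. Members, gene lists and motifs were chosen with earlier results of these data known. Named genes were all members, all 16 relatives, and for the targets the genes without an end peak; Jag2, Rab25, Cdh3, Col17a1, Krt14 and the threshold of 2000 bp were picked after their values were seen. Alternatives varied window, gene-end distance, peak width and assignment.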

Additional observations from a re-analysis of the deposited data

How the results depend on the processing

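Of 24 alternative values, 21 stayed within 1.5 times the reported one. With windows of 100 kb on either side the 10 genes held 139 peaks, a median of 13.5 per window beside 9 for protein-coding genes. With 20 kb the median was 5 beside 3. These shifts follow from the amount of ground counted. With 2500 bp around gene bounds 8 of 10 members had an end peak, Tfap2c being added, and Tfap2b had peaks at both bounds; 63.5% of protein-coding genes had an end peak. Among peaks of at least 400 bp the median width was 836 bp in the member windows and 830 bp over all peaks. Of the 89 peaks 75 were inside a member or nearest to its bound. The comparison of members with genes of at least 10 kb was added after seeing their lengths, and the median of relatives without Tfap2d after seeing the shared peaks. No paired analysis was possible because the list holds no value per sample. Without read depth, absent and weak peaks cannot be told apart.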
